A study of Oryctolagus cuniculus with 9 samples.

Results

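The 7 genes described here encode the 3 transforming growth factor beta (TGF-beta) ligands, TGFB1, TGFB2 and TGFB3, and the 4 latent TGF-beta binding proteins, LTBP1, LTBP2, LTBP3 and LTBP4. They were taken by name from the 23407 named gene rows of the deposited tables, and each name had 1 row. LTBP3 and LTBP4 stand in the tables under the locus identifiers LOC103347571 and LOC100351642, which a RefSeq gene table pairs with those symbols. RNA was sequenced in 9 libraries of ligamentum flavum, the elastin-rich ligament that joins the laminae of neighbouring vertebrae, of male New Zealand white rabbits 70 weeks old. The 3 libraries called Control came from a sham operation, the 3 called Fused from the fused level and the 3 called ISC from the level of intervertebral stress concentration. The treatment text, which is the same for all 9 samples and so does not describe the sham operation, gives surgery at 18 weeks of age, with removal of the supraspinal muscle at L3-4 and instrumented posterolateral fusion at L2-3 and L4-5. The series' title names mechanical stress in a long-term rabbit model as its subject. The labels tie no library to an animal, so replicates may be technical and Fused and ISC libraries may share animals. The p-values therefore only set each group difference against the spread between libraries, and may not hold for animals.

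TGF-beta ligands are secreted as inactive complexes in which the mature dimer stays wrapped in its own propeptide. In human and mouse, LTBP1, LTBP3 and LTBP4 bind that propeptide covalently and anchor the complex to fibrillin microfibrils and fibronectin, from which integrins and proteases can release the ligand. LTBP2 belongs to the same family and also sits on microfibrils, but it does not bind latent TGF-beta, and LTBP2 and LTBP4 take part in microfibril and elastic fibre assembly. The ligand set free acts through TGFBR1 and TGFBR2 on SMAD2 and SMAD3, and is known in ligaments for raising the synthesis of collagen and other matrix proteins.

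On the rabbit build oryCun2, as the deposited tables give it, TGFB1 lay on the unplaced scaffold Un0091 (611966 to 626445, plus strand, 5 exon blocks), and its span overlapped that of CYP2A11 on the same strand. TGFB2 lay on chromosome 16 (54746240 to 54836028, minus strand, 8 blocks), and its span overlapped that of PPP2CA on the opposite strand. TGFB3 and LTBP2 lay 1297 kb apart on the plus strand of chromosome 20, at 29182872 to 29208377 (7 blocks) and 30505274 to 30592928 (37 blocks), and an unnamed locus on the minus strand overlapped the span of LTBP2. LTBP1 was on chromosome 2 (152969054 to 153409559, minus strand, 35 blocks). LTBP3 and LTBP4 were on short unplaced scaffolds, Un2704 (55 to 6388, minus strand, 14 blocks) and Un1663 (9314 to 13613, minus strand, 8 blocks). None of the 7 genes shared exon bases with another gene of the tables. The exon length was 853 bases for TGFB1, 1539 for LTBP3, 1627 for LTBP4, 3481 for TGFB2, 3545 for TGFB3, 6687 for LTBP1 and 8139 for LTBP2. A level per kb divides by these lengths, including any that the unplaced scaffolds cut short. LTBP3 starts at base 55 of its scaffold, and LTBP3 and LTBP4 have fewer blocks than LTBP1 and LTBP2. TGFB1, also on an unplaced scaffold, has fewer blocks and a shorter exon length than TGFB2 and TGFB3. The rows of TGFB1, LTBP3 and LTBP4 may therefore cover only part of each gene. Their levels per kb, and the shares and ratios built on them, are those of the rows.

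Depth ranged from 1233155 to 1869209 reads in genes, and 3 reads were worth a scaled value between 2.40 and 3.58. Libraries of a group correlated across genes with r between 0.942 and 0.981, and every such pair differed by more than counting error (lowest chi-square per gene 5.57). HBB2, a haemoglobin beta chain of red cells, took 0.248%, 0.0963% and 0.233% of the reads of Control replicates 1 to 3, against 1.55%, 5.64% and 6.41% in Fused and 0.480%, 5.00% and 0.421% in ISC. Fused replicates 2 and 3 and ISC replicate 2 thus stood apart in blood reads, and the changes that involve Fused are also given without them. Ligament fibroblast markers were read in all libraries, with DCN, the proteoglycan decorin, at 1504 to 1885 in Control, 552 to 1467 in Fused and 1741 to 6245 in ISC. TNMD, tenomodulin of mature tendon and ligament cells, was at most 0.799 in Control, at 0 in each Fused library and above 0 in 1 ISC library. The summed scaled count of 7 cartilage markers was 1238, 578 and 337 in Control replicates 1 to 3. It was 363, 1370 and 115 in Fused and 9214, 14432 and 8911 in ISC, so that every ISC library lay above all others. Values here are scaled read counts, which the authors divided by a size factor per library, and in bulk tissue fewer cells of a type and less RNA per cell cannot be told apart.

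Among the ligands, TGFB1, the most widely expressed isoform in most tissues, had few reads, on a short row of 853 bases. Per kb its mean level in Control was 25.7, above the 8.82 of TGFB2. The scaled count of TGFB1 was 12.3, 32.7 and 20.9 in Control replicates 1 to 3, 18.6, 47.3 and 27.3 in Fused and 25.7, 47.7 and 44.1 in ISC. In each group replicate 1 held the lowest value, and the 3 groups overlapped. These values rest on 13 to 47 reads, and the lowest, 13 reads, has an exact Poisson interval from 6.92 to 22.2 reads, which covers counting error only.

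TGFB2, an isoform with roles in skeletal and heart development, was at 17.9, 45.5 and 28.7 in Control replicates 1 to 3 and at 20.9, 21.1 and 16.4 in Fused. In ISC it was at 26.8, 31.0 and 129. ISC replicate 3 stood above every other library, while the remaining 2 ISC values lay inside the Control range. That library had 129 reads of TGFB2 (exact Poisson interval 108 to 153), and the fewest were 15 in Fused replicate 3 (8.40 to 24.7). Beside it, ISC replicate 3 held the highest DCN value of all libraries (6245). IBSP, a bone matrix sialoprotein, was at 627 there, 49.3 and 177 in ISC replicates 1 and 2 and 709 in Fused replicate 2. The whole list of 7 bone markers summed to 840 in ISC replicate 3 and to 127 and 251 in ISC replicates 1 and 2. It summed to 171, 1137 and 607 in Fused, where TGFB2 was at most 21.1, and to 72.6 to 148 in Control. BGLAP, of that list, was at 0 in all 9 libraries. Whether cells of bone or other tissue contributed to the TGFB2 value was not tested.

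TGFB3, an isoform known from palate development and tendon formation, was the most read of the 3 ligands. Its scaled count was 217, 217 and 186 in Control, 260, 121 and 254 in Fused and 195, 235 and 306 in ISC. The groups overlapped, and Fused replicate 2 was the lowest of the 9 libraries. TGFB3 also varied least of the 7 genes: the standard deviation of its log2(value + 1) over the 9 libraries was 0.38, against 0.65 for TGFB1, 0.89 for TGFB2 and 0.56 to 1.26 for the binding proteins.

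LTBP1, which in human and mouse carries latent TGF-beta into the matrix, was at 598, 1104 and 776 in Control, 795, 400 and 331 in Fused and 902, 715 and 841 in ISC. Fused replicate 1 lay within the Control range and the other 2 Fused libraries lay below it. The ISC values lay inside the Control range.

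LTBP2 was the most read of the 4 binding proteins and the most variable of the 7 genes. Its scaled count was 4974, 4395 and 3669 in Control replicates 1 to 3, 1348, 1231 and 551 in Fused and 6895, 4549 and 6180 in ISC. All 3 Fused libraries lay below all other libraries, and the highest of the 9 values was 12.5 times the lowest. The ISC libraries overlapped with Control, with 2 of them above it.

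LTBP3, which binds latent ligands and is known in mouse and human for skeletal and tooth growth, was at 782, 670 and 491 in Control, 331, 222 and 153 in Fused and 704, 424 and 616 in ISC. All Fused values lay below all Control and ISC values. LTBP4, which supports elastic fibres through fibulin-5, was at 886, 837 and 672 in Control, 429, 173 and 192 in Fused and 667, 421 and 455 in ISC. Its ISC values all lay below Control, if by little between 667 and 672, and the lowest ISC value lay just below the highest Fused value.

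**Figure D1:**
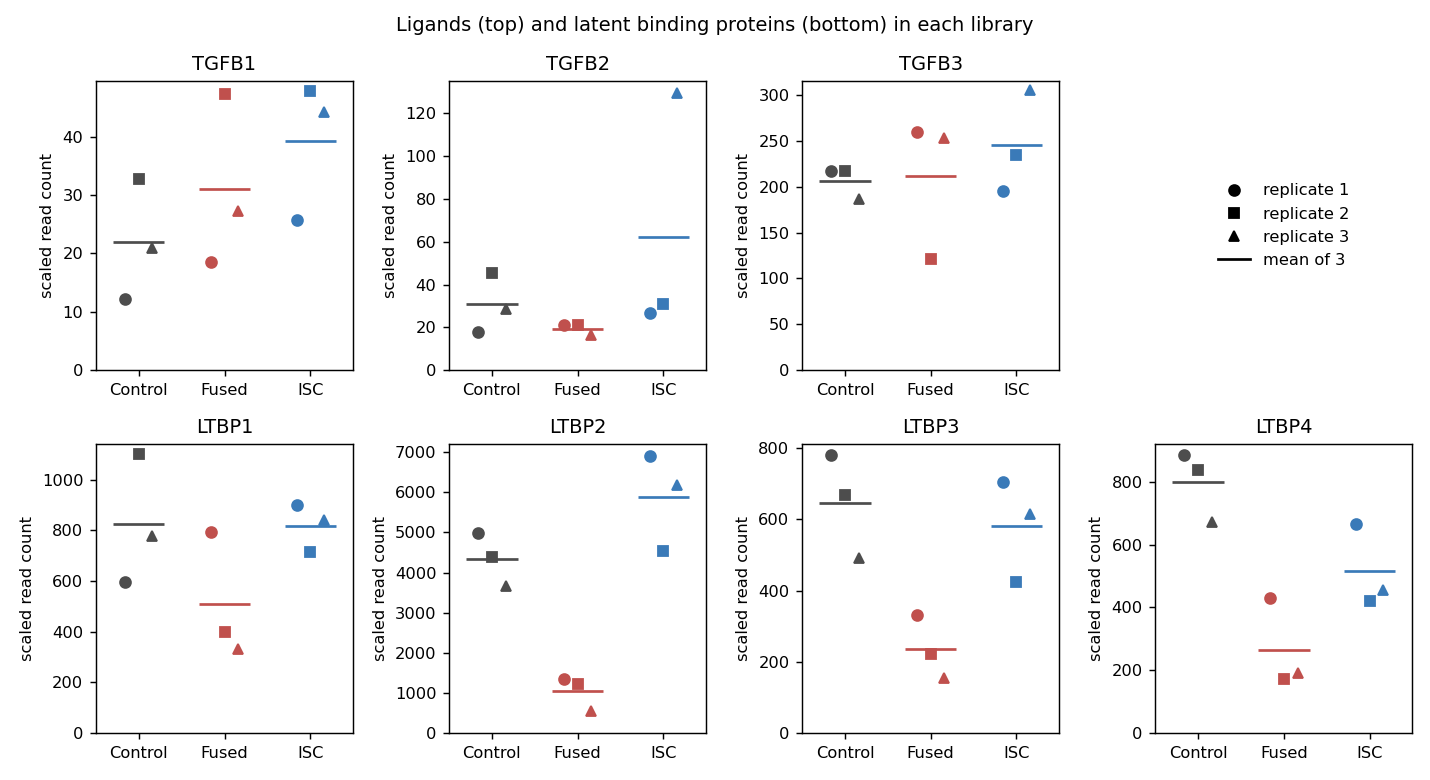
Scaled read count (vertical axis, from 0) of each of the 7 genes in the 9 libraries, by group; symbols mark the replicate number and lines the mean of 3. LTBP2, LTBP3 and LTBP4 lie lower in all 3 Fused libraries than in all Control libraries, and TGFB2 in ISC replicate 3 (129) lies above the other 8 libraries.

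Levels of different genes can be compared only per length, so scaled counts were divided by exon length in kb. In Control the mean scaled count per kb was 534 ± 80.3 (SD, n = 3) for LTBP2, 491 ± 68.8 for LTBP4 and 421 ± 95.1 for LTBP3, and neighbours in this order overlapped. LTBP1 followed at 123 ± 38.4, then TGFB3 at 58.3 ± 5.03, TGFB1 at 25.7 ± 12.1 and TGFB2 at 8.82 ± 4.00, each below its neighbour with no overlap. By this measure, LTBP2, LTBP4 and LTBP3 ranked 212, 219 and 243 from the top of the 17029 genes above 0 in Control, TGFB3 ranked 1908 and TGFB2 8130.

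In Fused this order was flatter. LTBP4 was at 163 ± 87.4 per kb, LTBP3 at 153 ± 58.3, LTBP2 at 128 ± 52.9, LTBP1 at 76.1 ± 37.5, TGFB3 at 59.7 ± 22.2 and TGFB1 at 36.4 ± 17.2, and every neighbouring pair overlapped. Only TGFB2, at 5.59 ± 0.766, lay apart from its neighbour. In ISC LTBP2 stood alone at 722 ± 148 per kb, above LTBP3 (378 ± 93.3) and LTBP4 (316 ± 81.8), which overlapped. LTBP1 came next at 122 ± 14.2, and TGFB3 (69.2 ± 15.8), TGFB1 (46.0 ± 13.8) and TGFB2 (17.9 ± 16.7) followed, with overlap between TGFB3 and TGFB1 and between TGFB1 and TGFB2.

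The comparison of Fused with Control addressed the fused level. LTBP2, LTBP3 and LTBP4 fell, and the ligands and LTBP1 did not pass the test. The mean scaled count of LTBP2 was 1043 ± 430 (SD, n = 3) in Fused against 4346 ± 654 in Control, 4.17-fold lower, a log2(value + 1) change of -2.15 (SE 0.369, limma adjusted p = 0.0188). LTBP4 was 3.02-fold lower, at 265 ± 142 against 798 ± 112 (-1.70, SE 0.324, limma adjusted p = 0.0229), and LTBP3 was 2.75-fold lower, at 235 ± 89.7 against 648 ± 146 (-1.50, SE 0.290, limma adjusted p = 0.0238). Of the 7 genes, 3 were called (Benjamini-Hochberg adjusted p under 0.05 over all 14686 genes tested), where 6.58% of all genes tested were called and 2.60% were called lower. EdgeR and DESeq2 called the same 3 of the 7 genes (6.78% and 9.34% of all genes). The same 3 genes lay lower with no overlap between groups, which held for 13.3% of all genes tested in that direction.

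LTBP1 was at 509 ± 250 in Fused and 826 ± 257 in Control (-0.76, SE 0.348, limma adjusted p = 0.239). TGFB1 had a log2 change of 0.48 (limma adjusted p = 0.567; 0.14 without Control replicate 1 or Fused replicate 2, 0.81 without Control replicate 2 and 0.79 without Fused replicate 1), TGFB2 of -0.54 (0.419) and TGFB3 of -0.05 (0.949). The 95% intervals of these 3 changes ran from -0.52 to 1.49, from -1.36 to 0.28 and from -0.69 to 0.60, so that a change of the size seen for LTBP2 lay outside all 3. Over the 7 genes the median log2 change was -0.76, against 0.02 over all genes tested.

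In the authors' deposited table, which calls a gene at a q-value under 0.1, LTBP2, LTBP3 and LTBP4 were called for Fused and Control as well, with q of 0.00701, 0.0114 and 0.00786; the table calls 6.01% of its rows. The calls made here depended on which libraries were in the fit. When Control replicate 1 or 2 or Fused replicate 2 or 3 was left out, limma called 0 of the 7 genes and 0 of all genes, with 2348 to 2811 genes at an unadjusted p under 0.05; LTBP2, LTBP3 and LTBP4 then had adjusted p between 0.0706 and 0.122 and log2 changes between -2.32 and -1.23. Without Control replicate 3, LTBP4 missed the threshold (adjusted p = 0.0574), and without Fused replicate 1 LTBP1 also passed (-1.13, adjusted p = 0.0272). With all 9 libraries in 1 fit, 0 of the 7 genes passed (adjusted p between 0.0516 and 0.0629; 0.170% of all genes called, 2806 at an unadjusted p under 0.05).

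Blood reads moved with these changes, and so did lymphocyte, macrophage and bone markers. The summed scaled count of 10 erythroid markers was 60.7 to 176 in Control and 1382 to 8241 in Fused. That of 6 granulocyte markers was 75.1 to 221 and 1865 to 19845. That of 5 lymphocyte markers was 25.5 to 60.9 and 345 to 957. That of 6 macrophage markers was 173 to 243 and 331 to 1069. That of 7 bone markers was 72.6 to 148 and 171 to 1137, highest in Fused replicate 2. In ISC the lymphocyte sums were 51.5 to 865, the macrophage sums 114 to 646 and the bone sums 127 to 840. The sum of 3 skeletal muscle markers was 1906, 8.78 and 259 in Control replicates 1 to 3 and 6.56 to 17.4 in Fused. In ISC that sum was 494, 3.58 and 5.02. Sums of platelet, endothelial, mural and adipocyte markers overlapped between Fused and Control. Of the 10 erythroid markers none was at 0 throughout a group. ISC replicate 2 had an erythroid sum of 9571 and 5.00% HBB2 reads, and there LTBP2 was at 4549, within the Control range, and LTBP3 and LTBP4, at 424 and 421, below it. Fused replicate 1, with 1.55% HBB2 reads, had LTBP2, LTBP3 and LTBP4 at 1348, 331 and 429, each below all Control libraries. Without Fused replicates 2 and 3 the log2 changes of LTBP2, LTBP3 and LTBP4 were -1.68, -0.94 and -0.89 (limma adjusted p = 0.307, 0.374 and 0.319, the single Fused library being assumed to vary as Control did). LTBP1 then had a change of -0.01 (0.994), in place of -0.76, and TGFB1, TGFB2 and TGFB3 had -0.13, -0.44 and 0.33 (0.442 to 0.938). Ligament fibroblast markers moved too, with the summed count of 9 of them at 22951 to 41235 in Control and at 13298, 41133 and 7301 in Fused replicates 1 to 3. Of the sum in Fused replicate 2, the type I collagen genes COL1A1 and COL1A2 made up 18111 and 19631, while DCN (552), ELN (265) and COL3A1 (2092) lay below every Control library there. The part of blood, lymphocytes, macrophages, bone, muscle or fibroblasts in the falls was not tested beyond these values.

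**Figure D2:**
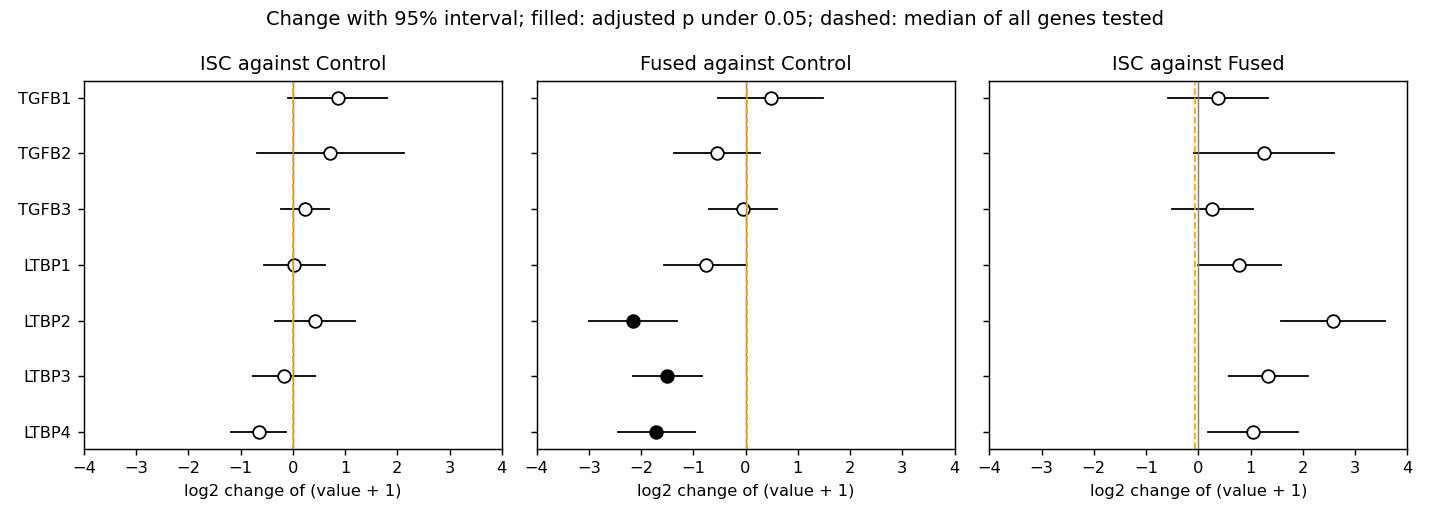
Log2 change of (value + 1) for each of the 7 genes in the 3 comparisons, with its 95% interval; filled points passed an adjusted p of 0.05 in limma and the dashed line marks the median of all genes tested. LTBP2 (-2.15), LTBP3 (-1.50) and LTBP4 (-1.70) are the filled points, all in Fused against Control.

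The comparison of ISC with Control addressed the level of stress concentration. None of the 7 genes passed the test. LTBP4 came nearest, with 515 ± 133 (SD, n = 3) in ISC and 798 ± 112 in Control and a log2 change of -0.65 (SE 0.226, limma unadjusted p = 0.0208, adjusted p = 0.364), and its groups did not overlap. TGFB1 was at 39.2 ± 11.8 against 22.0 ± 10.3 (0.86, SE 0.408, limma adjusted p = 0.465; 0.52 without Control replicate 1) and LTBP2 at 5874 ± 1202 against 4346 ± 654 (0.42, SE 0.332, limma adjusted p = 0.653).

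The other changes were 0.72 for TGFB2, 0.23 for TGFB3, 0.03 for LTBP1 and -0.16 for LTBP3, with limma adjusted p between 0.676 and 0.972. The sign for LTBP1 turned with the scaling (-0.13 with scaling by total reads alone). Without ISC replicate 3 the change of TGFB2 was 0.01, and that of TGFB3 0.05. In this comparison limma called 7 of 14348 genes (0.0488%), with 1653 at an unadjusted p under 0.05, and 8.73% of the genes were lower in ISC with no overlap. Of the 7 described here, 1, LTBP4, had an unadjusted p under 0.05 in limma, edgeR and DESeq2 alike, and edgeR and DESeq2 also called 0 of them (0.0348% and 1.61% of all genes). The authors' deposited table called none of them at q under 0.1, where it calls 2.58% of its rows.

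The interval of the LTBP4 change ran from -1.18 to -0.13 and that of LTBP2 from -0.35 to 1.19, on the log2 scale. A fall of LTBP2 of the size measured in Fused lay outside its interval. ISC and Fused were both set against the same 3 Control libraries, so these values are given side by side and not as separate evidence.

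ISC was also compared directly with Fused, 2 levels whose libraries may share animals. All 7 genes had higher values in ISC on average, and none passed the test. LTBP2 was at 5874 ± 1202 (SD, n = 3) in ISC and 1043 ± 430 in Fused, 5.63 times as high, with a log2 change of 2.57 (SE 0.428, limma adjusted p = 0.0678). LTBP3 had a change of 1.34 (SE 0.326, limma adjusted p = 0.182), LTBP4 of 1.05 (0.373) and LTBP1 of 0.79 (0.489).

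Among the ligands TGFB2 had a change of 1.26 (limma adjusted p = 0.518), which was 0.55 without ISC replicate 3. TGFB1 had 0.38 (limma adjusted p = 0.811), which was 0.07 without Fused replicate 1 and 0.72 without Fused replicate 2, and TGFB3 had 0.27 (0.830), which was -0.09 without Fused replicate 2. The groups of LTBP2, LTBP3 and TGFB2 did not overlap, all higher in ISC, where 8.08% of the 15404 genes tested did so. The median over the 7 genes was 1.05 and over all genes -0.07.

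In this comparison limma called 43 genes (0.279%), with 1586 at an unadjusted p under 0.05. The call of LTBP2 differed between methods. With all 9 libraries in a single fit its limma adjusted p was 0.0143 (1.39% of genes called), and DESeq2 on the recovered reads gave 5.89e-07, with LTBP3 at 0.0461 (2.06% called). EdgeR called 0 of the 7 genes (0.188% of all genes), with 4 at an unadjusted p under 0.05 against 3 in limma. In the authors' deposited table LTBP2 (q = 0.000983) and LTBP3 (q = 0.0617) were called and TGFB2 was not (q = 0.131), with 2.25% of its rows called. Without Fused replicates 2 and 3 and ISC replicate 2 the Fused arm is 1 library, and the changes of LTBP1 to LTBP4 were 0.13, 2.27, 0.99 and 0.36 (limma adjusted p = 0.936, 0.812, 0.771 and 0.893). Those of TGFB1, TGFB2 and TGFB3 were then 0.83, 1.46 and -0.09.

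The make-up of the 4 binding proteins differed between the libraries. As a share of their summed level per kb, LTBP2 took 34.9%, 32.6% and 34.7% in Control replicates 1 to 3, 21.7%, 32.7% and 20.2% in Fused and 45.8%, 46.6% and 48.5% in ISC. Its share lay higher in every ISC library than in every Control library. LTBP4 took 31.1%, 31.1% and 31.8% in Control and 22.2%, 21.6% and 17.9% in ISC, with no overlap, and 34.5%, 23.0% and 35.3% in Fused. LTBP1 took 5.10% to 9.97% in Control, 13.0% to 15.6% in Fused and 7.29% to 8.91% in ISC. LTBP3 stayed between 22.9% and 31.3% in all 9 libraries. These shares have no test, since they are scores over genes chosen with results known, and they do not depend on how libraries were scaled. ISC also differed from Control in cartilage markers, and the part of cartilage cells in these shares was not tested.

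LTBP2 and LTBP4 were paired after their values were seen. Their ratio, LTBP2 to LTBP4 per kb, is the quotient of the shares above and adds no separate evidence. It was 1.05 to 1.12 in Control, 2.07, 2.16 and 2.71 in ISC and 0.629, 1.42 and 0.572 in Fused. ISC replicate 2, rich in blood reads, lay with the other 2 ISC libraries, and Fused replicate 2 lay apart from its group.

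Among the ligands TGFB3 held the largest share of the summed level per kb in 8 of the 9 libraries. It took 75.8%, 54.4% and 61.6% in Control, 72.5%, 35.6% and 66.1% in Fused and 59.2%, 50.5% and 49.3% in ISC. The exception was Fused replicate 2, where TGFB1 took 58.0%. That library also had the highest values of the platelet genes PPBP (83.5) and ITGA2B (172). ISC replicate 2 came next for both (27.5 and 39.4), and its TGFB1 share of 42.7% was the second highest. The whole list of 7 platelet and megakaryocyte markers did not follow these 2 genes: it summed to 257 to 840 in Control, 477 to 708 in Fused and 292 to 736 in ISC, with Fused replicate 2 at 708, below Control replicate 3 (840), and ISC replicate 2 at 292, the second lowest. GP9, of that list, was at 0 in all Control libraries, at 12.1 in Fused replicate 2, at 5.97 in ISC replicate 2 and at most 3.28 elsewhere. Fused replicate 2 also had the highest sums of granulocyte (19845), lymphocyte (957), macrophage (1069) and bone markers (1137). In ISC replicate 2 these sums were 13494, 865, 511 and 251. The part of platelets, other blood cells, macrophages or bone in the TGFB1 share was not tested.

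**Figure D3:**
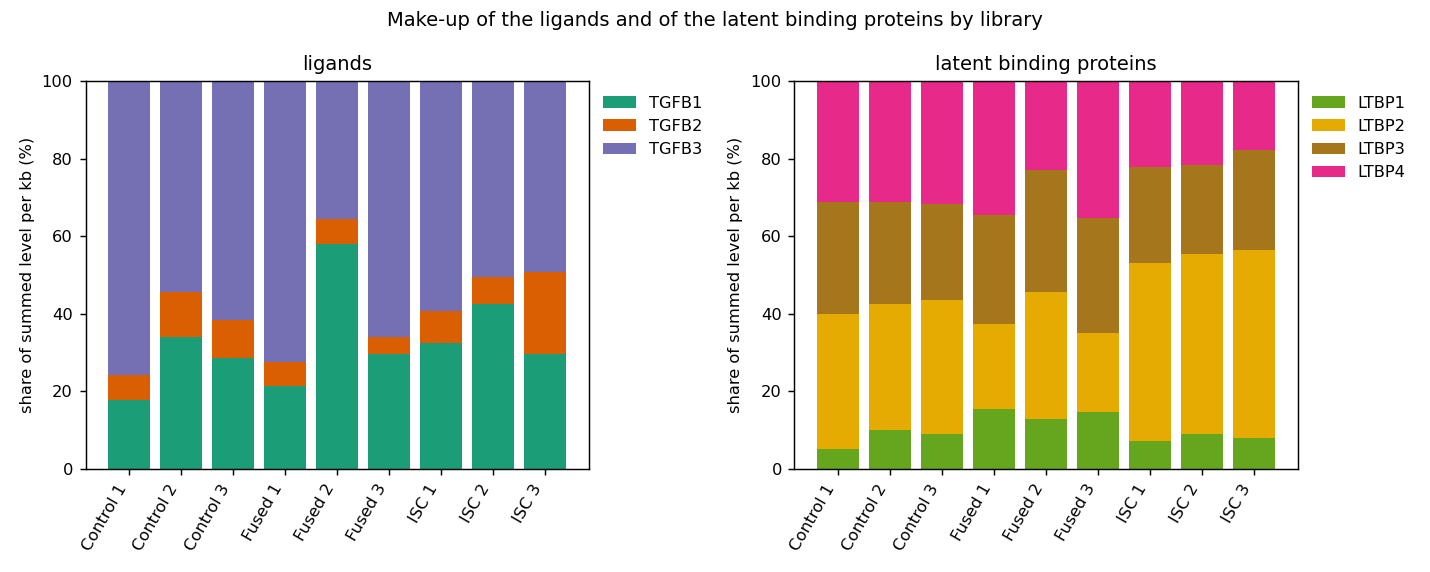
Share (%) of each ligand (left) and each latent binding protein (right) in the summed scaled count per kb of its class, for each library. LTBP2 takes 45.8% to 48.5% in ISC and 32.6% to 34.9% in Control, and TGFB1 takes 58.0% of the ligands in Fused replicate 2.

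The summed level of the binding proteins was 1753, 1655 and 1299 per kb in Control, 763, 462 and 335 in Fused and 1850, 1200 and 1565 in ISC. The Fused sums lay below all others. The summed ligands were 80.7, 113 and 85.2 per kb in Control, 101, 95.5 and 108 in Fused and 92.9, 131 and 175 in ISC, with all 3 groups overlapping. The binding proteins thus outweighed the ligands by 14.7 to 21.7 times in Control, by 3.09 to 7.54 times in Fused and by 8.93 to 19.9 times in ISC. As LTBP2 does not bind the ligand in human and mouse, this ratio is one of transcript levels and not of binding capacity.

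**Figure D4:**
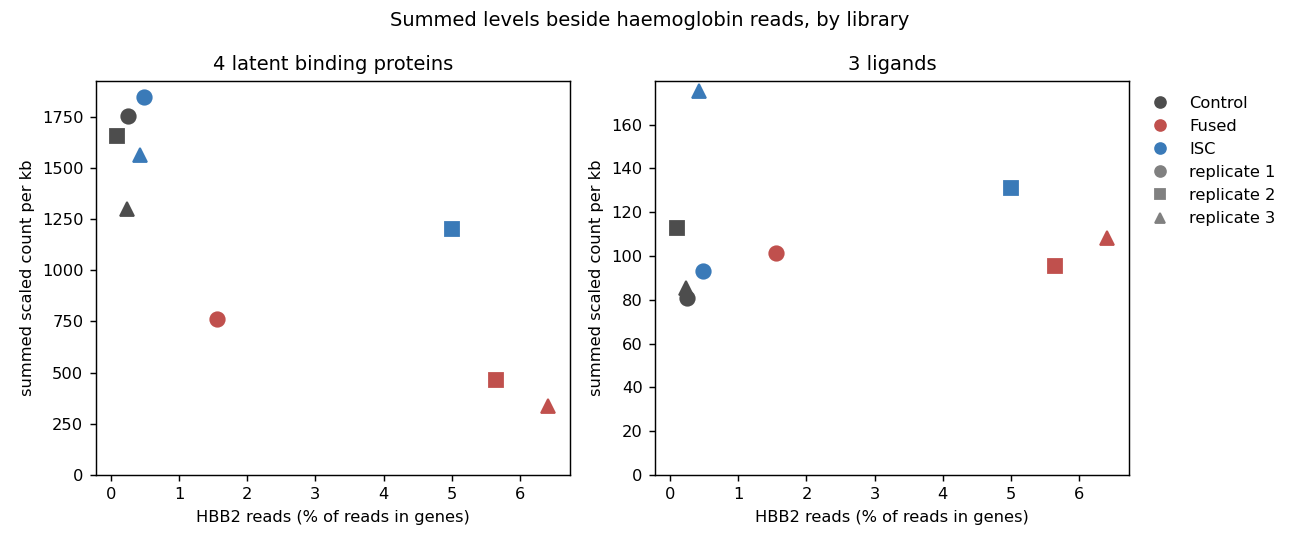
Summed scaled count per kb of the 4 binding proteins (left) and the 3 ligands (right) against HBB2 reads as a percent of reads in genes, for each library; colours mark the group and symbols the replicate. ISC replicate 2, with 5.00% HBB2 reads, has a binding protein sum of 1200, while Fused replicates 2 and 3, with 5.64% and 6.41%, have 462 and 335.

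For each gene the most similar profiles over the 9 libraries were sought among 8283 named genes with a mean of 20 or more. Likeness was the root mean square difference of centred log2(value + 1), where a lower value is more alike. LTBP2 was nearest to PKD1, the polycystin-1 gene (0.234), which was at 617 in Control, 170 in Fused and 748 in ISC on average, and then to STEAP2 (0.316). LTBP3 was nearest to SCARA3 (0.171) and NOX4 (0.178), and LTBP4 to SEMA3B (0.230) and NTN4 (0.242).

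LTBP1 was nearest to ABCC9 (0.147) and TGFBR3 (0.159), the TGF-beta co-receptor betaglycan, which was at 516, 324 and 516 in Control, Fused and ISC on average. Among the ligands TGFB3 was close to PRKD3 (0.148), and TGFB1 was nearest to JAK2 (0.268) and LMAN1 (0.288), and TGFB2 to TMEM119 (0.262) and GJA1 (0.327). The closest pair within the 7 genes was LTBP3 and LTBP4 (0.306), and TGFB1 and LTBP2 were the least alike (1.34). These are descriptions over libraries that share depth, blood content and group.

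The other genes of the pathway were read from 3 lists. Of the genes that store and release latent TGF-beta, 22 were found and 21 tested in Fused against Control, where 0 rose and 5 fell, with a median of -0.53 against 0.02 over all genes and 2.60% of all genes called lower. FN1, fibronectin, onto which LTBP1 is laid down, was at 1840 ± 954 in Fused and 8548 ± 1972 in Control (-2.31, SE 0.435, limma adjusted p = 0.0222). ITGB5, an integrin chain that helps release latent TGF-beta, fell by 1.84 on the log2 scale (limma adjusted p = 0.0194).

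EMILIN1, which restrains TGF-beta processing, had a change of -1.13 (limma adjusted p = 0.0343), FBLN5, the elastic fibre protein that LTBP4 guides, of -1.05 (0.0473) and MMP2, a gelatinase, of -1.43 (0.04995). The more highly read members that did not pass were BGN, biglycan, at -1.09 (0.0702), DCN at -0.98 (0.129) and THBS1, a thrombospondin that can activate latent TGF-beta, at 0.90 (0.433).

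Of 15 receptors and SMADs, 0 were called in Fused against Control, with a median of -0.36. SMAD3 was at 152 ± 30.3 in Fused and 247 ± 30.1 in Control (-0.71, limma adjusted p = 0.0602), with no overlap. TGFBR2 had -0.23 (0.555) and TGFBR3 -0.75 (0.153).

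Of 17 genes known to respond to TGF-beta, 0 rose and 6 fell, with a median of -0.81, beside the same 2.60% of all genes called lower. LOX, which cross-links elastin and collagen, had a log2 change of -3.66 (limma adjusted p = 0.0188), POSTN, periostin, of -2.69 (0.0175) and ELN, elastin, of -2.49 (0.0169). COL3A1, type III collagen, had -2.45 (0.0375) and TIMP3, a metalloproteinase inhibitor, -1.05 (0.0390). FN1, the sixth, stands in 2 lists. COL1A1 and COL1A2, the chains of type I collagen, had -0.01 and -0.10 (0.997 and 0.958), and CTGF had -0.81 (0.243). Fused replicate 2 stood apart for type I collagen: the Fused libraries, by replicate number, had scaled counts of 1963, 18111 and 1644 for COL1A1 against 3144 to 5380 in Control, and 3936, 19631 and 2733 for COL1A2 against 4212 to 9830, so that the other 2 Fused libraries lay below all Control libraries for both. In all, 10 different genes of the lists were called among 52 tested; edgeR called 7 and DESeq2 12 (6.58%, 6.78% and 9.34% of all genes by limma, edgeR and DESeq2). Limma called 0 when Control replicate 1 or 2 or Fused replicate 2 or 3 was left out, 3 without Control replicate 3 and 20 without Fused replicate 1. Without Fused replicates 2 and 3, an alternative chosen after seeing the data, 0 list genes were called and the medians were -0.19, -0.07 and -0.43 in the order above, with 4, 0 and 5 genes at an unadjusted p under 0.05. The 10 genes then had log2 changes between -2.25 (LOX) and -0.47 (FBLN5).

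In ISC against Control limma and edgeR called 0 of 53 list genes, with 12 and 15 at an unadjusted p under 0.05, and DESeq2 called 6. Over all 14348 genes 1653 had an unadjusted p under 0.05 in limma, and DESeq2 called 1.61%. The medians were 0.35 for storage and release, -0.02 for receptors and SMADs and 0.65 for response genes, against 0.00 over all genes. THBS1 was at 5769 ± 4625 in ISC and 376 ± 365 in Control (4.07, SE 0.746, limma adjusted p = 0.215). FN1 had 1.49 (0.371), BGN 1.06 (0.373), COL3A1 0.95 (0.638), COL1A2 1.23 (0.513), SMAD3 0.56 (0.366), TGFBR2 -0.13 (0.851) and TGFBR3 -0.02 (0.978). The part of cartilage cells in these ISC values was not tested.

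In ISC against Fused limma and edgeR called 0 of 52, with 21 and 22 at an unadjusted p under 0.05, and DESeq2 called 13. Over all 15404 genes 1586 had an unadjusted p under 0.05 in limma, and DESeq2 called 2.06%. The medians in the same order were 0.88, 0.25 and 1.33, against -0.07 over all genes, and 0.78, 0.01 and 1.31 without Fused replicates 2 and 3 and ISC replicate 2, where limma called 0. FN1, at 24195 ± 6975 in ISC and 1840 ± 954 in Fused, had a change of 3.80 (SE 0.563, limma adjusted p = 0.0509), THBS1 of 3.17 (0.0889), COL3A1 of 3.40 (0.121) and BGN of 2.15 (0.0887). COL1A2 had 1.33 (0.714), SMAD3 1.27 (0.0848), TGFBR3 0.73 (0.510) and TGFBR2 0.10 (0.926).

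**Figure D5:**
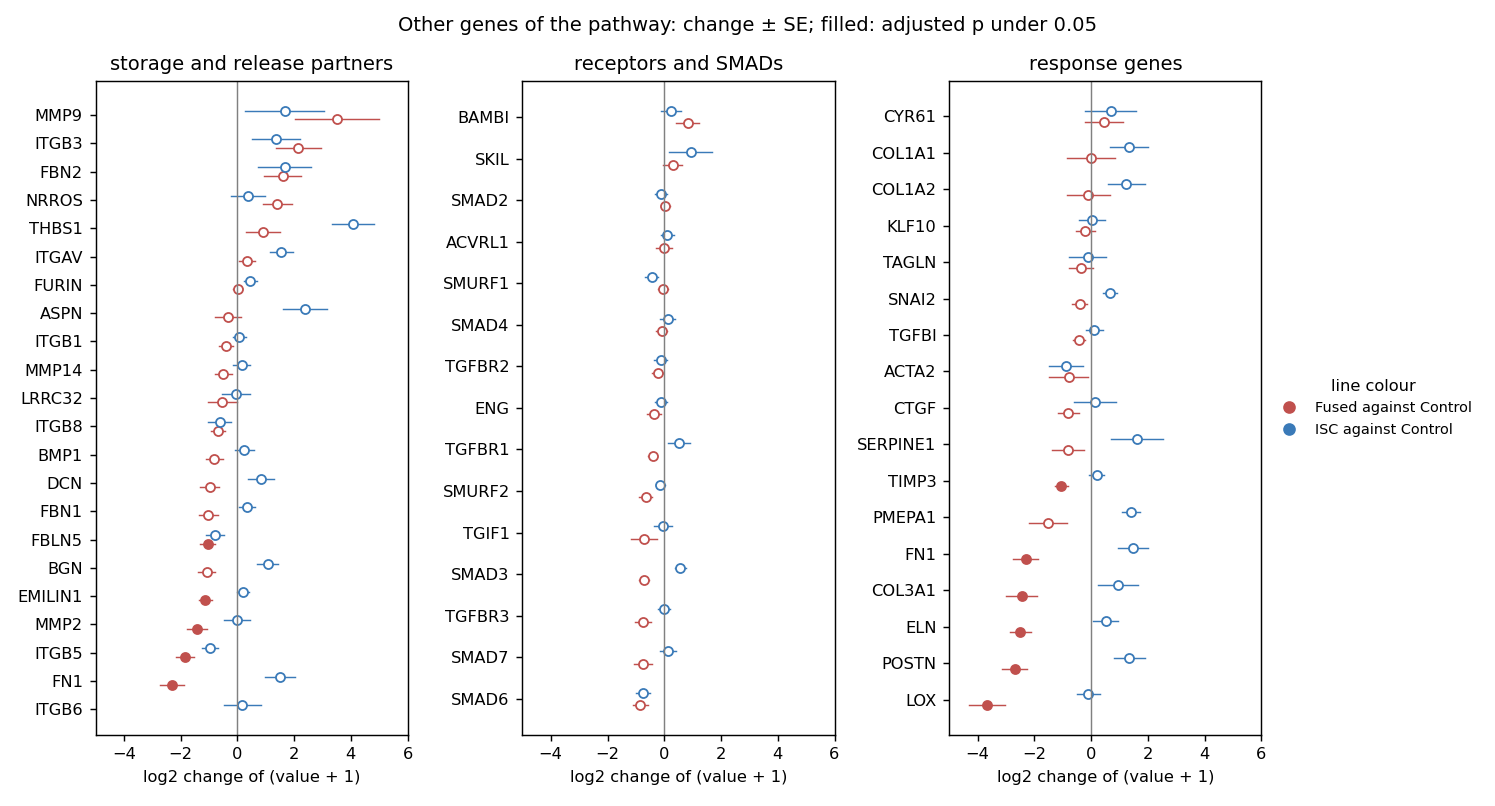
Log2 change of (value + 1), with SE, of the other genes of the pathway in Fused against Control (red) and ISC against Control (blue), by list; filled points passed an adjusted p of 0.05 in limma. All filled points are falls in Fused, in storage and release (FN1, ITGB5, MMP2, EMILIN1, FBLN5) and response genes (LOX, POSTN, ELN, COL3A1, FN1, TIMP3).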

How the data were processed

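Total RNA of 9 libraries was sequenced on an Illumina MiSeq after a directional kit, per the labels and the series' design text. Mapping to oryCun2 used TopHat, which the submitters' processing notes name too, and Cufflinks followed, per the design text. Not given in the sources used here were the counting tool, annotation and strand setting. Per the file headers, the authors deposited 3 tables with the same normalized signal per gene: read counts divided by a library size factor, named TMM by the tables. The deposited tables also hold the authors' p-values, q-values, a rank score, calls and gene lengths, and their fold changes were not used. Within a tolerance of 1e-06, 100% of values were whole multiples of the value of 1 read, so reads were recovered; in Fused replicate 2 and ISC replicate 3 that value is so near 1 (1.006 and 1.003) that rounding could give the same pattern. The 1 row without a gene name was left out.

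Per pair of groups, limma 3.58.1 (R 4.3.3, mean-variance trend) was fitted to log2(value + 1) for genes whose value reached 1 in 3 or more of the 6 libraries, with two-sided p Benjamini-Hochberg adjusted over all genes tested and called under 0.05. This scale understates changes of low genes. The fit was tested on simulated data. Alternatives were pseudocounts of 0.1 and 5, no filter, scaling by total reads or by median of ratios, all 9 libraries in 1 fit, a replicate block, edgeR 4.0.16 and DESeq2 1.42.0 on recovered reads, leaving out each library, and leaving out blood-rich libraries (for the pathway lists, added after seeing the data). Named were all 7 genes; per list and comparison up to 6 called genes by p and the 3 most highly read others; and the 2 likest profiles per gene, of which 1 is not reported here. The LTBP2 to LTBP4 ratio and the single marker genes named were chosen after their values were seen. The 7 genes and the lists were chosen with earlier results of these data known. List members FBLN4, ADAMTSL2, SKI, PF4, ELANE, C1QA, C1QB, CD79A, SCX, CNMD, CNN1, PLIN1, MYH2, MYH7 and TNNT3 did not match a row by name and were not analysed here.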

Additional observations from a re-analysis of the deposited data

How the results depend on the processing

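LTBP2, LTBP3 and LTBP4 kept their direction in Fused against Control under all 16 alternatives. In 1 fit of all 9 libraries none of the 7 genes was called there (adjusted p = 0.0516, 0.0629 and 0.0528 for LTBP2, LTBP3 and LTBP4), 25 genes were called in place of 966, and 1 of the 7 was called in ISC against Fused. Without single libraries the members called ranged from 0 to 4, all genes called from 0 to 2191 and list genes from 0 to 20 in Fused against Control. Without the blood-rich libraries, 0 members, 0 list genes and 0 genes were called there, with 1924 genes at an unadjusted p under 0.05, and 0 genes in ISC against Fused, with 878. With pseudocount 0.1 the 7 genes called in ISC against Control became 4, with all libraries in 1 fit 14 and with DESeq2 231; without single libraries they ranged from 4 to 38. In ISC against Fused the 43 genes became 79 without a filter, 214 in 1 fit and 318 with DESeq2, which called 2 of the 7, and ranged from 0 (1059 at an unadjusted p under 0.05) to 24 without single libraries.

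Replicate numbers were not shown to pair the samples, nor does this exclude that they do: correlations of same-numbered deviations were 0.14, -0.05 and 0.03 for ISC and Control, -0.04, -0.05 and 0.03 for Fused and Control and 0.30, 0.30 and -0.10 for ISC and Fused. With the replicate block the calls were 3 genes in ISC against Control, 719 in Fused against Control and 88 in ISC against Fused; the members called stayed at 0, 3 and 0, and 2 list genes were called in ISC against Fused and 8 in Fused against Control.

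Signs turned for genes that were not called. LTBP1 in ISC against Control was -0.127 with scaling by total reads, -0.0269 with edgeR and -0.00636 with DESeq2, and ranged from -0.182 to 0.259 without single libraries; LTBP3 there ranged from -0.347 to 0.0504. In Fused against Control TGFB3 was 0.00395 with edgeR, 0.0329 with DESeq2 and 0.334 without the blood-rich libraries, where TGFB1 was -0.127, and TGFB3 ranged from -0.235 to 0.316 without single libraries. In ISC against Fused TGFB3 was -0.0897 without the blood-rich libraries and ranged from -0.0901 to 0.461 without single libraries. Scaling by total reads moved the median of all genes from 0.00 to -0.14 in ISC against Control, and the called genes from 6 higher and 1 lower to 6 and 2, and the median from -0.07 to -0.18 in ISC against Fused. The causes of these shifts were not tested. TGFB1 and TGFB2, with 13 to 129 reads a library, are limited by depth.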
